A study of Gallus gallus with 6 samples.

Results

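The miR-460 family is listed in the deposited table as 4 mature miRNAs, miR-460a-5p, miR-460a-3p, miR-460b-5p and miR-460b-3p, out of 565 listed chicken miRNAs. The members were taken by name, as the 5p and 3p arms of the miR-460a and miR-460b hairpins. The family itself was chosen by earlier results on the same counts, namely the change of each arm with age and the 5p to 3p ratio of each hairpin. These measures are therefore given as a description and without a test. Small RNA was sequenced from the livers of egg-laying hens at 30 weeks of age (L30, 3 libraries) and of juvenile hens at 20 weeks (L20, 3 libraries), and the sources used here do not say how many hens each library holds. All were females of the Lushi breed, described by the study as green-shell layers and kept in cages under the same conditions with free access to food and water, and the study describes L30 as peak-laying and L20 as pre-laying. The study compared the ages to learn which liver miRNAs differ once hens lay eggs.

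A miRNA hairpin is cut in the nucleus and then by Dicer into a short duplex. One strand comes from the 5′ side of the hairpin (5p) and the other from the 3′ side (3p). As a rule one strand is loaded into an Argonaute protein and guides the silencing of mRNAs, and the other is degraded. The ratio of the arms in sequencing counts gives how unevenly the strands were read. The study joined the adapters with T4 RNA ligase, and whether arms or hairpins were ligated equally well was not tested. MiR-460 is known from fishes and birds, and its targets are far less studied than those of the liver miRNA miR-122. Both precursors have a gene in the RefSeq annotation of the chicken assembly GRCg7b. MIR460A lies within the span of PTH2R, a parathyroid hormone receptor gene that is also listed under the name PTH1R, and MIR460B lies within the span of HTR2C, a serotonin receptor gene. They are on different chromosomes, and no other annotated miRNA gene lies within either receptor gene. The assembly used by the study is not given in the sources used here, so coordinates are not given. Mature sequences were not used here.

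The miRNA reads of the libraries numbered from 3864984 to 8804077 in L30 and from 7135289 to 14822854 in L20. They made up from 18.2% to 45.0% of the clean reads in L30 and from 49.1% to 58.0% in L20. Levels are given in TPM, the reads of a miRNA per 1000000 clean reads of its library, so the TPM of every miRNA also moves with this share. The ratio between the arms of a hairpin does not change with the scaling, since both arms are divided by the same total. Whether the arm ratio itself varies with the miRNA share was not tested. Reads of 3 counts correspond to between 0.141 and 0.223 TPM in L30 and between 0.113 and 0.206 TPM in L20. The reads were amplified without molecular identifiers, so these limits and all intervals below cover counting error only. The hepatocyte miRNA miR-122-5p ranged from 12705 to 37721 TPM in L30 and from 49844 to 69839 TPM in L20. Of 15 matched marker miRNAs of hepatocytes, blood cells, endothelium, mesenchyme and epithelium, 0 were absent from any library. All 15 had a negative log2 fold change, and 8 were called lower in L30 (edgeR, adjusted p of at most 0.05). Over the 236 miRNAs that passed a filter on low counts, the median log2 fold change was −0.86. Of these, 24.6% were called, all as lower in L30.

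In these livers miR-460a was read mainly from its 5p arm at both ages, and the balance between its arms was more extreme in laying hens. The 5p arm had the higher mean level in L30 and the 3p arm had the lower one. MiR-460b behaved otherwise. Both of its arms were read about equally, and the hairpin reached its higher levels in L20-2, L30-1 and L30-2 and was at few or no reads in the other 3 libraries.

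MiR-460a-5p is the major product of its hairpin and the most abundant member, at rank 64 by mean TPM among the 236 miRNAs that passed the filter on low counts. All 4 members passed this filter. MiR-460a-5p had 358, 327 and 142 TPM in L30-1, L30-2 and L30-3, and 203 TPM in L20-1, 90.7 TPM in L20-2 and 93.0 TPM in L20-3. L30-1 and L30-2 lay above all L20 libraries, whereas L30-3 lay below L20-1, so the ages overlapped. Among libraries with the same replicate number the L30 library was the higher one each time, though they come from different hens and nothing in the labels ties them. The mean was 276 ± 117 TPM in L30 and 129 ± 64.5 TPM in L20 (SD, n = 3 each), a ratio of 2.14 and a log2 fold change, L30 over L20, of 1.09 ± 0.55 (SE). In bulk liver, a change in the number of cells of a type and a change in RNA per cell cannot be told apart.

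MiR-460a-3p is the minor product, at rank 160. It had 5.47, 3.49 and 1.32 TPM in the L30 libraries, from 107, 47 and 28 reads, and 10.3, 9.90 and 6.95 TPM in the L20 libraries, from 209, 263 and 101 reads. Every L30 library lay below every L20 library, which was also the case for 46.2% of the tested miRNAs. The mean was 3.43 ± 2.08 TPM in L30 and 9.05 ± 1.83 TPM in L20 (SD, n = 3 each), a ratio of 0.379 and a log2 fold change of −1.40 ± 0.62 (SE). Like 46.2% of the tested miRNAs, the hepatocyte marker miR-122-5p was also lower in L30 without overlap. So were the summed markers of erythroid cells, leukocytes and endothelium. They ranged from 282 to 1176 TPM in L30 and from 1569 to 3139 TPM in L20 for the 2 erythroid markers, and from 943 to 3664 TPM in L30 and from 4627 to 6736 TPM in L20 for the 4 leukocyte markers. For the 2 endothelial markers the sums were from 6458 to 14792 TPM in L30 and from 28732 to 42751 TPM in L20. The sums of the 3 mesenchymal and stellate markers, from 1121 to 3214 TPM in L30 and from 2604 to 5506 TPM in L20, and of the 3 biliary and other epithelial markers, from 251 to 721 TPM in L30 and from 701 to 852 TPM in L20, overlapped between the ages. The part of these cell types in the level of miR-460a-3p was not tested.

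**Figure D1:**
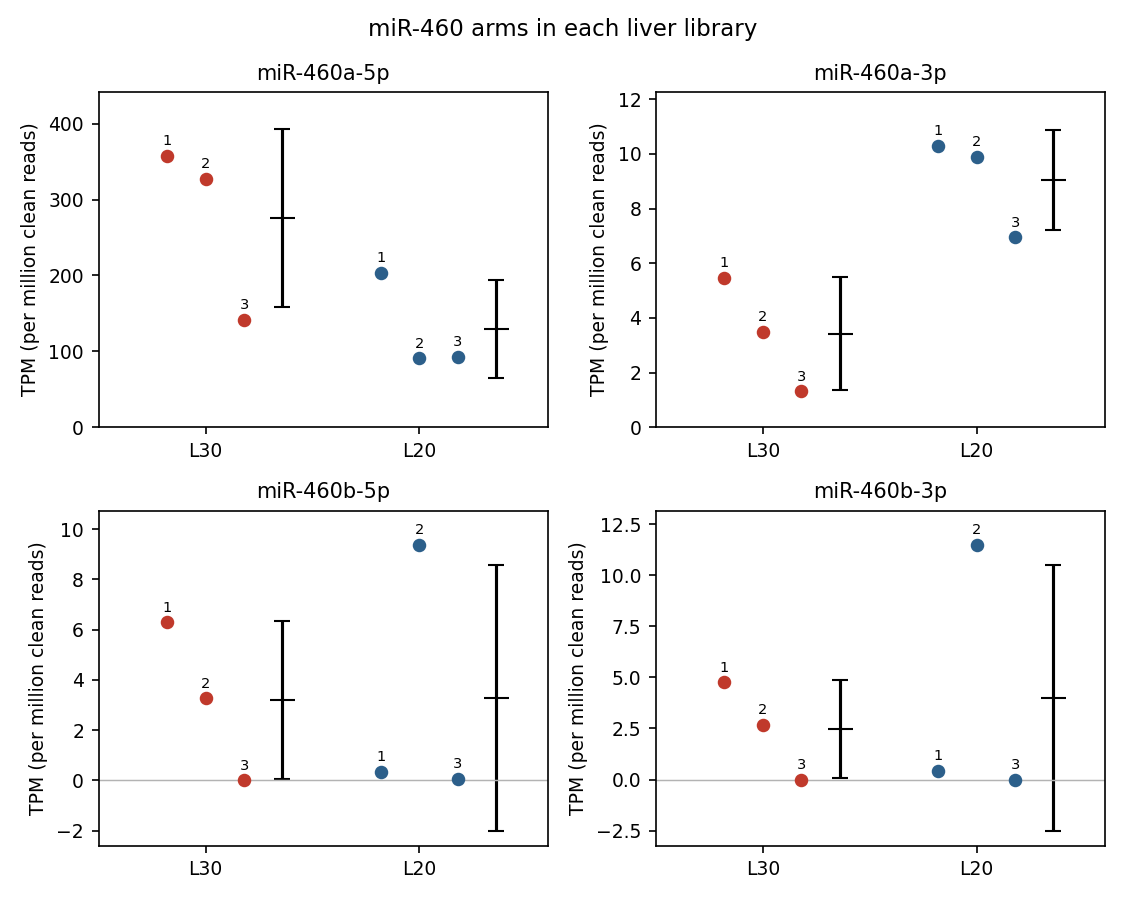
Level of each miR-460 arm (y axis, reads per 1000000 clean reads) in the 3 L30 and the 3 L20 libraries. Points are libraries with their replicate number, and the bars beside them give the mean and SD. MiR-460a-5p has its highest points in L30 and miR-460a-3p in L20, while both arms of miR-460b are high in L20-2, L30-1 and L30-2.

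In edgeR's quasi-likelihood test over all 236 miRNAs, 24.6% passed an adjusted p threshold of 0.05 (Benjamini-Hochberg), and 0 of the 4 arms were called. Before adjustment 2 arms passed 0.05, both of miR-460a, among 92 of the 236 miRNAs that did. DESeq2, which called 33.5% of the miRNAs as lower in L30, and limma, which called 29.2% as lower, called 1 arm each, miR-460a-3p as lower. Fisher's exact test after summing the reads of each age, which ignores the spread between libraries, called all 4 and 86.9% of the whole table. With the replicate number as a block, which called 38.1% of the miRNAs, 2 arms were called, miR-460a-5p as higher and miR-460a-3p as lower in L30. Without L30-1, miR-460a-3p was called as lower, as were 41.4% of the miRNAs tested. It was also called as lower with the library totals implied by the deposited TPM, which called 31.8% as lower, and with at least 10 counts asked of every library, which called 33.0% as lower. Without a filter 8.5% of the miRNAs were called, and 0 of the 4 arms. Because the family was proposed for this contrast, nothing is read from these counts.

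The size of the age difference of each arm depended on the scaling, and its direction did not for miR-460a. Scaled to the clean reads, the median log2 fold change of all tested miRNAs was −0.86, while it was −0.28 with TMM factors, −0.09 with DESeq2's size factors, −0.10 with the summed miRNA counts and 0.12 with upper quartile factors. Under these 4 other scalings the log2 fold change of miR-460a-5p was 1.69, 1.89, 1.86 and 2.13, and edgeR called it as higher in L30 under each of them, as it did 8.9%, 14.0%, 12.3% and 17.4% of the miRNAs. The values of miR-460a-3p were −0.89, −0.72, −0.72 and −0.52 under the same scalings, and it was called under none of these 4. Set against the median of all tested miRNAs, miR-460a-5p stood 1.96 above it with the clean reads and between 1.95 and 2.02 above it over 6 scalings. MiR-460a-3p stood between −0.64 and −0.54 from the median over the same 6. Over 16 alternatives of scaling, test, filter and libraries, miR-460a-5p was higher in L30 in 16 and miR-460a-3p was lower in 16.

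**Figure D2:**
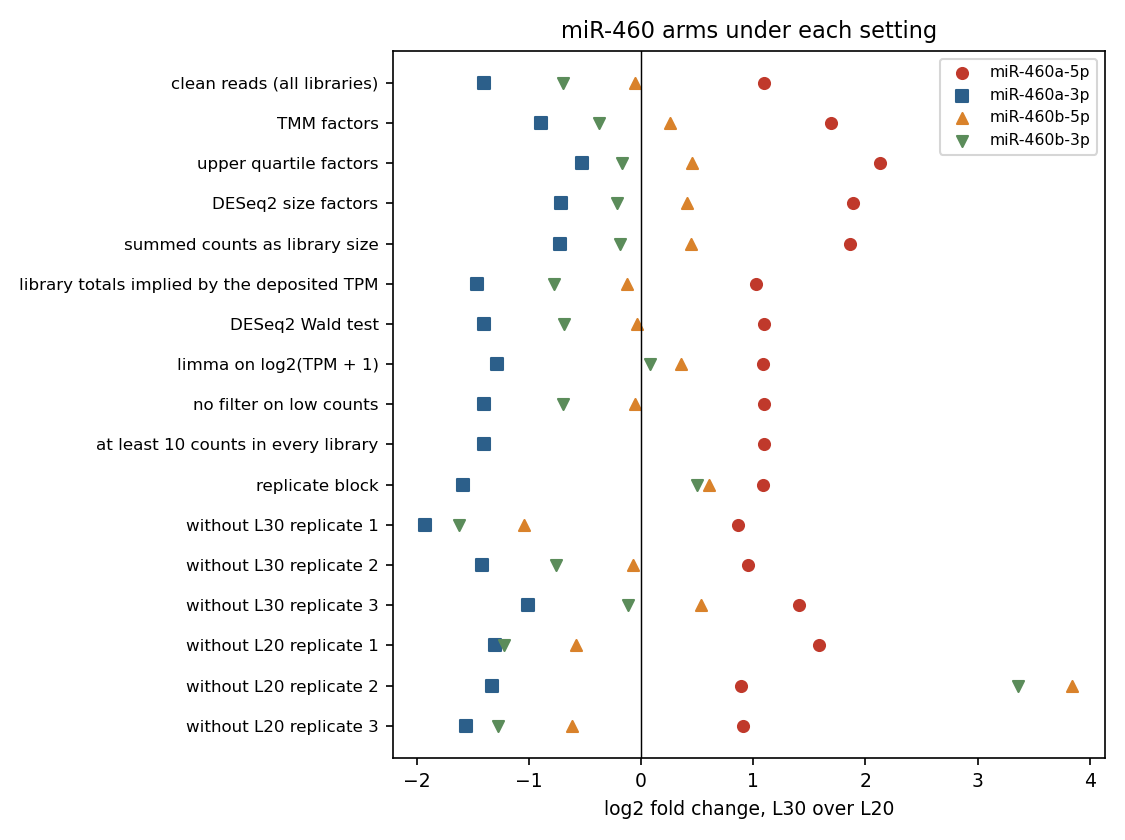
Log2 fold change of each miR-460 arm, L30 over L20 (x axis), under each scaling, test and filter and with each library left out (y axis). Fisher's exact test is not shown. All points of miR-460a-5p lie right of 0 and all points of miR-460a-3p left of it, while both miR-460b arms lie on either side and reach 3.84 and 3.36 without L20-2.

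The opposite signs of the miR-460a arms gave a shift in arm usage that could be read within each library. Of the reads of both miR-460a arms, the 5p arm took 98.5% in L30-1 (95% Wilson interval 98.2 to 98.8), 98.9% in L30-2 (98.6 to 99.2) and 99.1% in L30-3 (98.7 to 99.4). In the L20 libraries it took 95.2% in L20-1 (94.5 to 95.8), 90.2% in L20-2 (89.0 to 91.2) and 93.0% in L20-3 (91.6 to 94.2). No interval of an L30 library touched one of an L20 library. Such intervals were not computed for hairpins outside the family. Of 64 hairpins with both arms counted under the same name, L30 ratios lay wholly above L20 ratios in 18 and wholly below in 16. The intervals of the 3 L20 libraries did not overlap each other, so libraries of that age differed by more than counting error. There were thus 65.4, 93.7 and 108 reads of the 5p arm for each read of the 3p arm in L30-1, L30-2 and L30-3, against 19.8, 9.16 and 13.4 in L20-1, L20-2 and L20-3.

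On the log2 scale the 5p to 3p ratio of miR-460a averaged 6.43 ± 0.36 in L30 and 3.74 ± 0.55 in L20 (SD, n = 3 each), a difference of 2.68. With each library left out in turn it stayed between 2.41 and 2.96. Counts summed within each age gave 2.52, and the median difference between libraries with the same replicate number gave 2.99. Both arms together reached 363, 331 and 143 TPM in the L30 libraries and 214, 101 and 99.9 TPM in the L20 libraries. The output of the hairpin followed the 5p arm, and its ages overlapped through L30-3 and L20-1. The library with the lowest miRNA share of clean reads, L30-3 at 18.2%, had the highest arm ratio of the 6. Within L30 the ratio was higher where the share was lower, at 65.4, 93.7 and 108 beside 45.0%, 33.2% and 18.2%. Within L20 it was not, at 19.8 in L20-1, 9.16 in L20-2 and 13.4 in L20-3 beside 58.0%, 55.8% and 49.1%. Every L30 library had a lower miRNA share than every L20 library, so share and age cannot be told apart. The part of this share in the ratio was not tested.

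**Figure D3:**
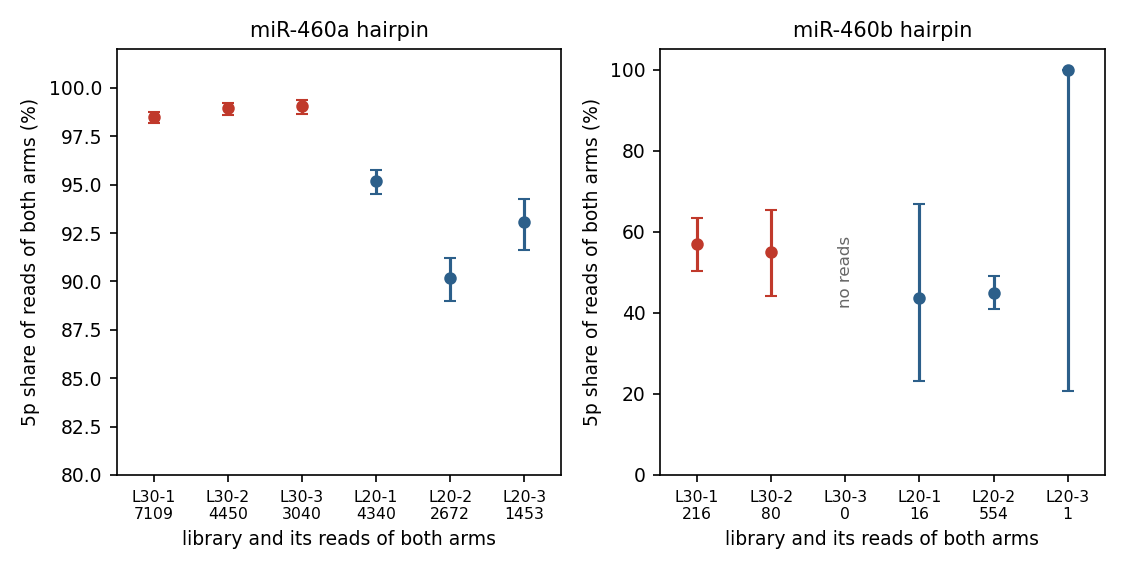
Share of the 5p arm among the reads of both arms (y axis, percent) of miR-460a on the left and miR-460b on the right, by library, with 95% Wilson intervals. The y axis of the left panel does not start at 0. The L30 libraries lie at 98.5% to 99.1% for miR-460a, above the L20 libraries at 90.2% to 95.2%, and the 4 miR-460b libraries with at least 16 reads lie between 43.8% and 56.9%.

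The same ratio was computed for every hairpin whose 5p and 3p arms are listed under the same name. Arms listed under differing names, such as miR-101-3p and miR-101-2-5p, were left out. Of 135 hairpins paired by name, 64 had a mean of at least 10 reads in each arm. Among these, the L30 ratios lay wholly above the L20 ratios in 18 hairpins (28.1%), miR-460a included, and wholly below in a further 16. The ages overlapped in the other 30, so separation in either direction was common. The median difference over the 64 was 0.12, with quartiles of −0.61 and 0.84, and 33 hairpins had a positive one. There was thus no common move toward either arm. MiR-460a, chosen with this value known, had the highest difference of the 64, followed by let-7k at 2.02, and the lowest was that of miR-2131 at −2.89. In size, miR-2131 and miR-146c, at −2.79, both exceeded miR-460a. The rank also depends on the cutoff of 10 reads. MiR-1456, left out for a mean of 4.67 reads in its 3p arm, had a difference of 2.83. MiR-6555, left out with means of 0.5 and 1 reads in its arms, had one of 2.77. In size, miR-218 at −2.99 and miR-18b at −2.91, also left out, exceeded miR-460a as well. The arm with more reads gained share in 33 of the 64 hairpins. In miR-460a it was the major arm that gained and the minor arm that lost.

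**Figure D4:**
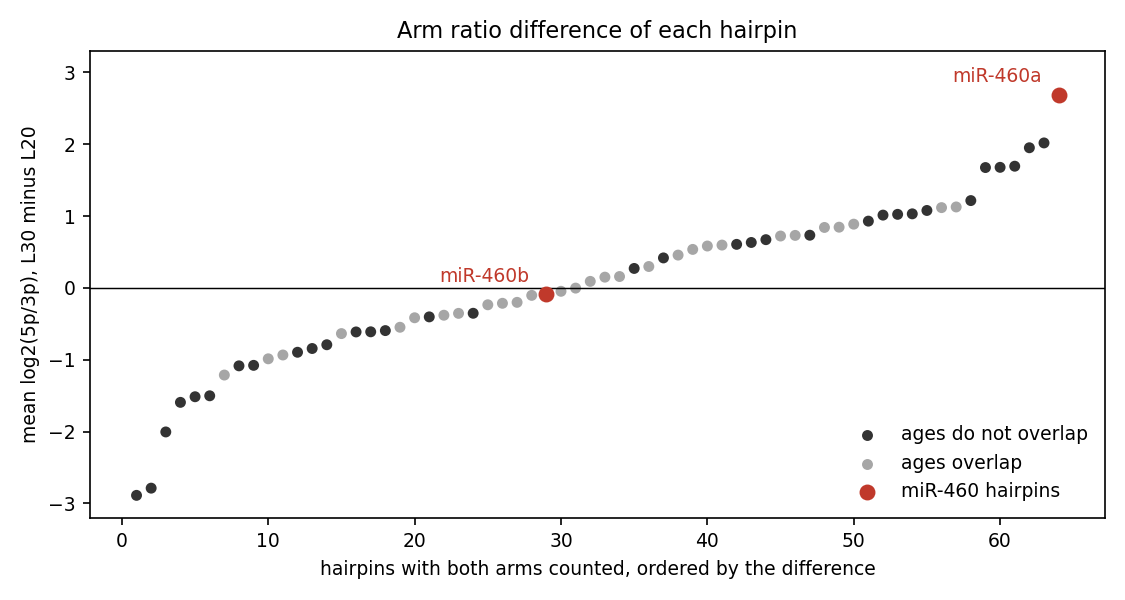
Difference in the mean log2 ratio of 5p to 3p reads, L30 minus L20 (y axis), of 64 hairpins. They have both arms counted under the same name and stand in order of the difference (x axis). Dark points are hairpins whose libraries of the ages do not overlap. MiR-460a stands at the upper end with 2.68, and miR-460b lies near 0, a value that keeps L30-3 with no reads and L20-3 with 1 read.

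MiR-460b-5p, at rank 173, had 6.29, 3.27 and 0 TPM in L30-1, L30-2 and L30-3, and 0.345, 9.38 and 0.0688 TPM in L20-1, L20-2 and L20-3. MiR-460b-3p, at rank 172, had 4.75, 2.68 and 0 TPM in the L30 libraries and 0.443, 11.5 and 0 TPM in the L20 libraries. Both arms were high in L30-1, L30-2 and L20-2 and low in the other 3 libraries. The arms together had 216, 80 and 0 reads in L30-1, L30-2 and L30-3, and 16, 554 and 1 reads in L20-1, L20-2 and L20-3. Within L30, L30-1 stood at least 78.3-fold above the 3-count limit of L30-3. Within L20, L20-2 stood 26.5-fold above L20-1. The spread between libraries of one age was therefore far wider than the difference between the ages. The mean of miR-460b-5p was 3.19 ± 3.14 TPM in L30 and 3.26 ± 5.30 TPM in L20 (SD, n = 3 each), and its log2 fold change was −0.05 ± 2.34 (SE). For miR-460b-3p the mean was 2.48 ± 2.38 TPM in L30 and 3.98 ± 6.51 TPM in L20, and its log2 fold change was −0.70 ± 2.46 (SE). Without L20-2, the log2 fold changes were 3.84 and 3.36, and with the replicate block they were 0.61 and 0.50, so no direction could be given for either arm.

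This spread was among the widest of the 236 miRNAs that passed the filter on low counts. The other 329 listed miRNAs were not ranked. Each arm of miR-460b reached the count asked by this filter only in the libraries where the hairpin was high. A wide range was thus partly built into their selection. The arms of miR-460b also went together across libraries, so their ranks are not separate observations. Between the lowest and the highest L20 library, miR-460b-3p differed by 3.64 and miR-460b-5p by 3.28 on the scale of log2(TPM + 1), the widest and the next widest of 236 miRNAs, whose median range was 0.48. In L30 the ranges were 2.87 for miR-460b-5p, at rank 3, and 2.52 for miR-460b-3p, at rank 7, against a median of 1.28. MiR-460a-5p had a range of 1.33 in L30, at rank 107, and of 1.16 in L20, at rank 27. MiR-460a-3p had a range of 1.48 in L30, at rank 84, and of 0.51 in L20, at rank 106. The hairpins of the family thus differed in how much they varied between libraries of the same age.

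**Figure D5:**
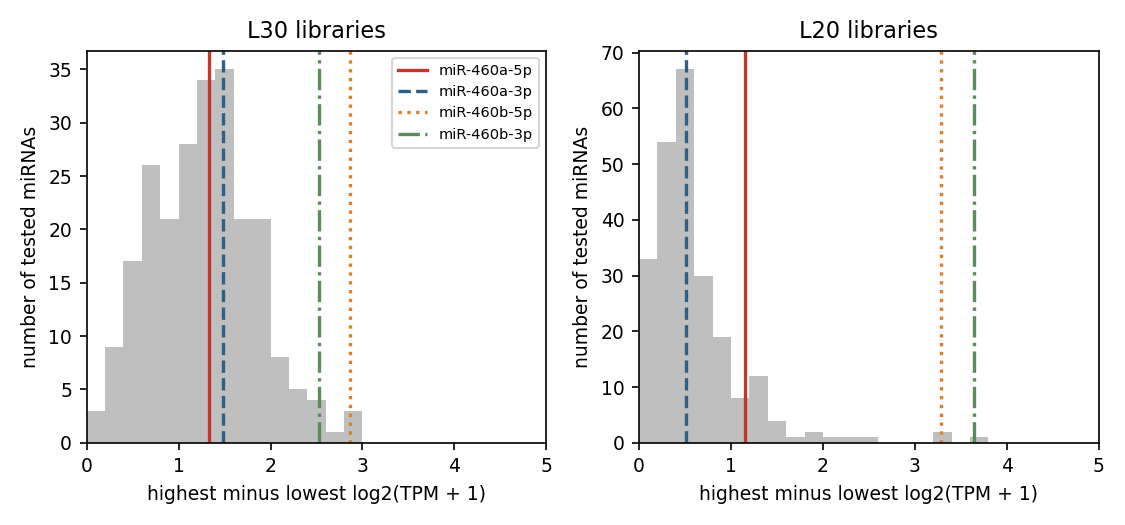
Number of tested miRNAs (y axis) by the difference between the highest and the lowest library of one age on the log2(TPM + 1) scale (x axis), for L30 on the left and L20 on the right. Lines mark the 4 miR-460 arms, and both miR-460b arms lie in the far right tail at both ages.

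The arms of miR-460b were nearly balanced where the hairpin was read. The 5p arm took 56.9% of its reads in L30-1 (95% Wilson interval 50.3 to 63.4) and 55.0% in L30-2 (44.1 to 65.4), against 43.8% in L20-1 (23.1 to 66.8) and 44.9% in L20-2 (40.9 to 49.1). L30-3 had no read of either arm, and L20-3 had 1 read, so neither gives a usable share. With 0.5 added to each count and all 6 libraries kept, the log2 ratio averaged 0.23 ± 0.21 in L30 and 0.32 ± 1.10 in L20 (SD, n = 3 each), a difference of −0.09. This value rested mainly on the single read of L20-3. The L30 mean and SD also include L30-3, whose ratio of 0 came only from the added 0.5. With only libraries of at least 10 reads kept, an alternative chosen after seeing the data, the difference was 0.66, and pooled counts also gave 0.66. The pooled 5p share was 56.4% in L30 (50.7 to 61.9) and 45.0% in L20 (41.0 to 49.1). These intervals did not overlap, and those of L30-1 and L20-2 did not either, but they cover counting error only and the L20 share rested on L20-2, which held 554 of its 571 reads.

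The hairpins were also set against each other within an arm. For each read of miR-460b-5p there were 56.9 and 100.1 reads of miR-460a-5p in L30-1 and L30-2, and 590 in L20-1, 9.67 in L20-2 and 1352 in L20-3. In L30-3, miR-460b-5p had 0 reads beside 3012 of miR-460a-5p, which makes miR-460a-5p at least 1004-fold more frequent at a limit of 3 counts. The 3p arms were much closer. MiR-460b-3p made up 46.5% of the reads of both 3p arms in L30-1 (95% Wilson interval 39.7 to 53.4) and 43.4% in L30-2 (33.2 to 54.1), against 4.13% in L20-1 (2.19 to 7.66) and 53.7% in L20-2 (49.6 to 57.8). It had 0 reads in L30-3 and L20-3, where miR-460a-3p had 28 and 101. In L20-2 the 3p arm of miR-460b thus had about as many reads as that of miR-460a. The mean log2 ratio of miR-460a to miR-460b, L30 minus L20, was 0.94 for the 5p arms and −1.83 for the 3p arms, both within the spread between libraries.

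The alignment allowed mismatches, and whether reads of one hairpin were counted for the other was not tested. L20-2, with the most reads of miR-460b at 554, had the lowest 5p share of miR-460a, at 90.2%. The share was 98.5%, 98.9% and 99.1% in L30-1, L30-2 and L30-3 beside 216, 80 and 0 reads of miR-460b, and 95.2% and 93.0% in L20-1 and L20-3 beside 16 and 1 reads. The 5p to 3p ratio of miR-460a was 108 in L30-3 and 13.4 in L20-3, the libraries with the fewest miR-460b reads at each age. It was 65.4 in L30-1 and 9.16 in L20-2, the libraries with the most. The part of miR-460b reads in this ratio was not tested, and mature sequences were not compared.

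Across the 6 libraries, the levels of the miR-460b arms went together (Pearson r = 0.99, Spearman rho = 0.99, n = 6, on log2(TPM + 1)). Those of the miR-460a arms did not (r = −0.22, rho = −0.31, n = 6). Between hairpins, r was 0.26 for the 5p arms and 0.37 for the 3p arms. Outside the family, the miRNAs most like miR-460a-5p were miR-130b-5p (r = 0.95), miR-3523 (r = 0.94) and let-7f-5p (r = 0.94), and their log2 fold changes were 1.03, 1.22 and 0.43. Those most like miR-460a-3p were miR-101-3p, miR-146a-3p and miR-101-2-5p, with r = 0.998, 0.997 and 0.996 and log2 fold changes of −0.98, −0.95 and −1.51. For miR-460b the closest miRNAs were less like it. They were miR-1668-3p, miR-1756a and miR-18a-3p for the 5p arm (r = 0.76, 0.71 and 0.71) and miR-1663-3p, miR-1756a and miR-1668-3p for the 3p arm (r = 0.74, 0.71 and 0.70). The miRNAs closest to miR-460b had low mean levels, from 0.645 to 1.17 TPM in L30 and from 0.632 to 3.28 TPM in L20. All these correlations are a description over 6 libraries that share the age difference and the difference in miRNA share.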

How the data were processed

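The authors cleaned the reads with the Fastx toolkit, aligned them to the chicken miRNAs of miRBase in CLC Genomics Workbench with mismatches and shortened or extended ends allowed, and deposited a read count for each miRNA and library. The authors also deposited TPM values, which equal the counts scaled to 1 fixed total per library. These TPM were used only to recover that total. TPM was recomputed with the clean reads given by the study. The main test was edgeR's robust quasi-likelihood F test (edgeR 4.0.16, R 4.3.3) after filterByExpr, which asks for 10 counts in enough libraries and 15 in total. It used clean reads as library sizes and Benjamini-Hochberg adjustment over 236 miRNAs. The SE given with its log2 fold changes was derived from the test, as the absolute log2 fold change divided by the square root of F. The fit was tested on simulated counts with 200 miRNAs changed 4-fold and a dispersion of 0.24 for every miRNA. The miR-460b arms and miR-460a-3p varied more than that, so the simulation does not speak for them. Alternatives used Fisher's exact test, DESeq2 1.42.0, limma 3.58.1 after adding 1 to TPM and taking log2, other scalings, filters, left-out libraries and a replicate block. Arm ratios had 0.5 added to each count. Groups came from the labels, and 0 value columns were left unmapped.

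Hens were slaughtered at sampling, so same-numbered libraries of the ages come from different hens, and nothing in the labels ties them. Their deviations from the age means correlated at 0.12, 0.17 and 0.19 across miRNAs, so the blocked fit is given beside the results whose calls it changed. The members and lists were chosen with earlier results of these data known. Named besides the members were the 3 tested miRNAs most like each of them and the marker miRNAs. The hairpins let-7k, miR-2131, miR-146c, miR-1456, miR-6555, miR-218 and miR-18b are named for their large differences of arm ratio, chosen after their values were seen. The sources used here do not say whether each library came from a separate hen, so p-values measure only the spread between these libraries, which may be technical. The paper's predicted miRNAs, targets and qRT-PCR were not analysed here. The paper itself lists miR-460a-5p among the miRNAs significantly up-regulated in laying hens, with p-values from a Fisher test. It also reports that qRT-PCR of selected miRNAs, miR-460a-5p among them, was significant and matched its sequencing result. Plots were made in matplotlib 3.10.9 (Python 3.11.15).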

Additional observations from a re-analysis of the deposited data

How the results depend on the processing

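The number of miRNAs called over the whole table was 58, all lower in L30. It was 205 with Fisher's exact test on pooled counts and 90 with the replicate block, and from 3 to 103 with 1 library left out, the lowest without L30-2 and the highest without L30-1. Without L20-1, L20-2 and L20-3 it was 24, 14 and 33. TMM, DESeq2 and upper quartile factors and the summed counts called 76, 71, 66 and 67, of which 21, 33, 41 and 29 were higher in L30. Of the miR-460 arms, 0 were called in the main edgeR test and without a filter. It was 1 arm, miR-460a-5p as higher, with each of TMM, upper quartile and DESeq2 factors and the summed counts. It was 1 arm, miR-460a-3p as lower, with each of the totals implied by the deposited TPM, DESeq2, limma and at least 10 counts in every library. These 4 settings called 75, 81, 69 and 61 miRNAs, the last of 185 tested. It was 2 arms with the replicate block, 4 with Fisher's test, and from 0 to 1 with 1 library left out. The cause of these differences was not tested. The arm ratio of miR-460a kept its direction under every alternative run. That of miR-460b ranged from −0.42 to 0.55 with 1 library left out and was 0.58 for same-numbered libraries. The miR-460a to miR-460b ratio ranged from −1.17 to 2.19 for the 5p arms and from −3.93 to 0.01 for the 3p arms with 1 library left out. A ratio of miR-460b without a pseudocount had no value, since L30-3 held no read. The low counts of miR-460b and of miR-460a-3p limit the precision of both ratios.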
